A study of Mus musculus with 30 samples.

Results

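Immediate early genes are the genes that cells transcribe within minutes of a stimulus with no new protein needed. Signals that reach the MAP kinases and cAMP-dependent kinases act on serum response factor, its ETS-domain partners and CREB at these promoters, and most of the products are transcription factors that then act on later genes. In macrophages they follow growth factors, adhesion and inflammatory ligands, and in freshly isolated tissue they also follow handling. The 10 genes described here were Fos, Fosb, Jun, Junb and Atf3, which encode proteins of the AP-1 and ATF families, Egr1 and Egr2, which encode zinc finger factors, Nr4a1, which encodes an orphan nuclear receptor, Ier2, a short immediate early transcript, and Dusp1, which encodes a phosphatase that inactivates MAP kinases. They were matched by symbol, and all 10 were found among the 55573 genes of each table. The group was chosen by its macrophage values, because Fosb, Fos and Dusp1 were low in 2 of the 3 knockout macrophage groups. The macrophage values of all 10 genes are therefore given as a description, without tests, while the retinal pigment epithelium (RPE) values were not used in the choice.

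Bulk polyA RNA-seq was done on RPE taken at postnatal day 25 (P25) and used directly, and on bone marrow-derived macrophages (BMDMs), grown from marrow of adult mice in L929-conditioned medium. Each tissue was taken from wildtype C57BL/6J mice (B6 WT) and from 3 Mertk knockout lines. Mertk-/-V1 mice (V1 below) lack an exon of the kinase region, were made in 129P2 embryonic stem cells and backcrossed to C57BL/6J, and still carry the neomycin cassette. Mertk-/-V2 mice (V2) lack the next exon after deletion of a floxed allele by tamoxifen-induced Rosa26 ERT2Cre, with Cre bred out later, and Mertk-/-V3 mice (V3) carry a CRISPR/Cas9 deletion of a pair of exons further upstream in the gene. V2 and V3 came from C57BL/6NJ embryos or eggs and are on a mixed C57BL/6J and C57BL/6NJ background, although every sample is labelled with the strain C57BL/6J. Every knockout carries the deletion in all cells, so none separates the RPE or macrophage from its surroundings. There were 6 B6 WT, 6 V1, 3 V2 and 3 V3 libraries of RPE, and 3 BMDM libraries of each genotype, labelled as biological replicates.

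Recovered reads per library ran from 14137666 to 34124049 in RPE and from 16629659 to 25653814 in BMDMs. Mertk itself was at 2638 to 3924 normalized counts in B6 WT RPE and at 919 to 1717 in V1 and 444 to 1106 in V3 RPE, without overlap. V2 RPE had 3566 to 5311, and V2 BMDMs had 3532 to 3589 against 2415 to 2881 in B6 WT, so a whole-gene count does not mark the V2 deletion. Summed over 8 macrophage markers, BMDM libraries held 14619 to 16288 CPM (counts scaled to library size), whereas Rpe65 and Lrat were at 0 in every BMDM group. All 8 RPE markers were present in RPE libraries, but so were rod markers, at 1050 to 31427 CPM for 8 genes, and macrophage markers, at 265 to 483. In such bulk samples, fewer cells of a type and less RNA per cell cannot be told apart.

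The 250 bases before the start of a gene are shown for the 3 genes with the largest macrophage differences and for Junb, an AP-1 gene with a small one, because CREB-type sites lie in this part of many immediate early promoters. Sequences are from RefSeq, build GRCm38.p6, 5′ to 3′ on the strand of the gene. Capitals mark the cAMP response element TGACGTCA, its half-site TGACG and the TATA box TATAAA, on either strand.
Fos (chr12:85473640-85473889, plus strand): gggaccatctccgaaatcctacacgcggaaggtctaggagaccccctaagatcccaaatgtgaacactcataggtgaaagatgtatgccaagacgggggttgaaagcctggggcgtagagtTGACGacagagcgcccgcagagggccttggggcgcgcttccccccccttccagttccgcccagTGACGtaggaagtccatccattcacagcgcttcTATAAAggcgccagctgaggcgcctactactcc
Fosb (chr7:19310046-19310295, minus strand): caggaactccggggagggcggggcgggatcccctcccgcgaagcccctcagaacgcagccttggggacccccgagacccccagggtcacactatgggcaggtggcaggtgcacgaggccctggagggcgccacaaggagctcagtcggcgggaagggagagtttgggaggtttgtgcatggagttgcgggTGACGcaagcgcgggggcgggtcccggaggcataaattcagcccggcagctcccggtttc
Dusp1 (chr17:26508473-26508722, minus strand): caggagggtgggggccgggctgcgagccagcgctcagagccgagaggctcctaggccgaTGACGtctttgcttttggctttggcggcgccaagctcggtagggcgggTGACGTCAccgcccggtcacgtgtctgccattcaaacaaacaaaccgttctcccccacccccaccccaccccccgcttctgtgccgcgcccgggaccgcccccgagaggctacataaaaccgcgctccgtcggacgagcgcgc
Junb (chr8:84978749-84978998, minus strand): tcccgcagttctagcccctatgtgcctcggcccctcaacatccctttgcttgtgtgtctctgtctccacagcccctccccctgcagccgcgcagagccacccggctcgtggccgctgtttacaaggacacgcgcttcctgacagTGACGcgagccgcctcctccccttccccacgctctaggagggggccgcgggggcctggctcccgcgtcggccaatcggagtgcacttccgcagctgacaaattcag
A window was held for 8 of the 10 genes, with 5 windows for Egr2, which has several start sites, and 1 for each of the others. The half-site TGACG was in a window of 7 of them, Fos, Fosb, Junb, Egr2 (3 of its 5 windows), Atf3, Dusp1 and Nr4a1, and in 17.9% of the 32536 distinct promoter windows of this length. The whole element TGACGTCA, which contains the half-site on both strands, was in Dusp1 alone of these genes, from 143 to 136 bases before the start, and in 1.56% of all windows. A TATA box was found in Fos and in 12.3% of all windows. The CArG box, to which serum response factor binds, was found in 4 of the 5 Egr2 windows and in 1.48% of all windows. The ETS site CCGGAA was found in 1 of the 5 Egr2 windows, in that of Nr4a1 and in 12.1% of all windows. The AP-1 site TGANTCA was in none of the members' windows and in 6.73% of all windows. Junb and Fosb each had 1 half-site, starting 106 and 60 bases before the start. A gene searched in 5 windows has more chances of a match than 1 window of the background. The Egr2 windows from chr10:67537619, 67537620 and 67537680 overlap and hold the same CArG box and the same half-sites, so their matches are not separate sites. These matches are letters in a window, not measured binding. Bases outside the windows and members without a window were not searched, so a motif not found here may lie elsewhere.

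In BMDMs, Fos, Fosb and Dusp1 were several-fold lower in V1 and V2 than in B6 WT and lay close to B6 WT in V3. Fosb, the AP-1 subunit with the largest difference, had 567, 512 and 768 normalized counts in B6 WT, 41.1, 35.0 and 25.9 in V1, 35.2, 32.3 and 59.8 in V2, and 940.5, 500.0 and 345 in V3. All 6 V1 and V2 libraries were below all 6 B6 WT and V3 libraries. The differences from B6 WT on the log2 scale were -4.14 (SE 0.32) in V1, -3.86 (SE 0.32) in V2 and -0.15 (SE 0.32) in V3, that is, 17.7-fold and 14.5-fold lower in V1 and V2. The lowest V1 library still held 23 reads of Fosb.

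Fos had 3038, 2377 and 2793 normalized counts in B6 WT, 389, 489.9 and 471 in V1, 520, 476 and 483 in V2, and 3025, 2235 and 1829 in V3. V1 and V2 again stood apart from the other libraries, at 6.07-fold and 5.52-fold lower than B6 WT, with log2 differences of -2.60 (SE 0.15) and -2.46 (SE 0.15). The V3 difference was -0.24 (SE 0.15), and V3 overlapped B6 WT. Dusp1, the phosphatase, had 2322, 1995 and 2099 normalized counts in B6 WT, 257, 264 and 291 in V1, 313, 249.1 and 281 in V2, and 1965, 1650 and 1332 in V3. V1 and V2 differed from B6 WT by -2.98 (SE 0.12) and -2.93 (SE 0.12) on the log2 scale. All 3 V3 libraries were below all 3 B6 WT libraries, by -0.39 (SE 0.12), which the wording of the choice does not show. Among the 13420 genes tested in BMDMs, Fosb, Dusp1 and Fos had the 2nd, 3rd and 4th lowest differences in V1, and the 3rd, 4th and 6th lowest in V2. The group was chosen by these differences, so the ranks are a description only. V3 replicate 1 held the highest and replicate 3 the lowest V3 value of all 3 genes, and Fosb differed by 2.73-fold between those replicates.

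**Figure D1:**
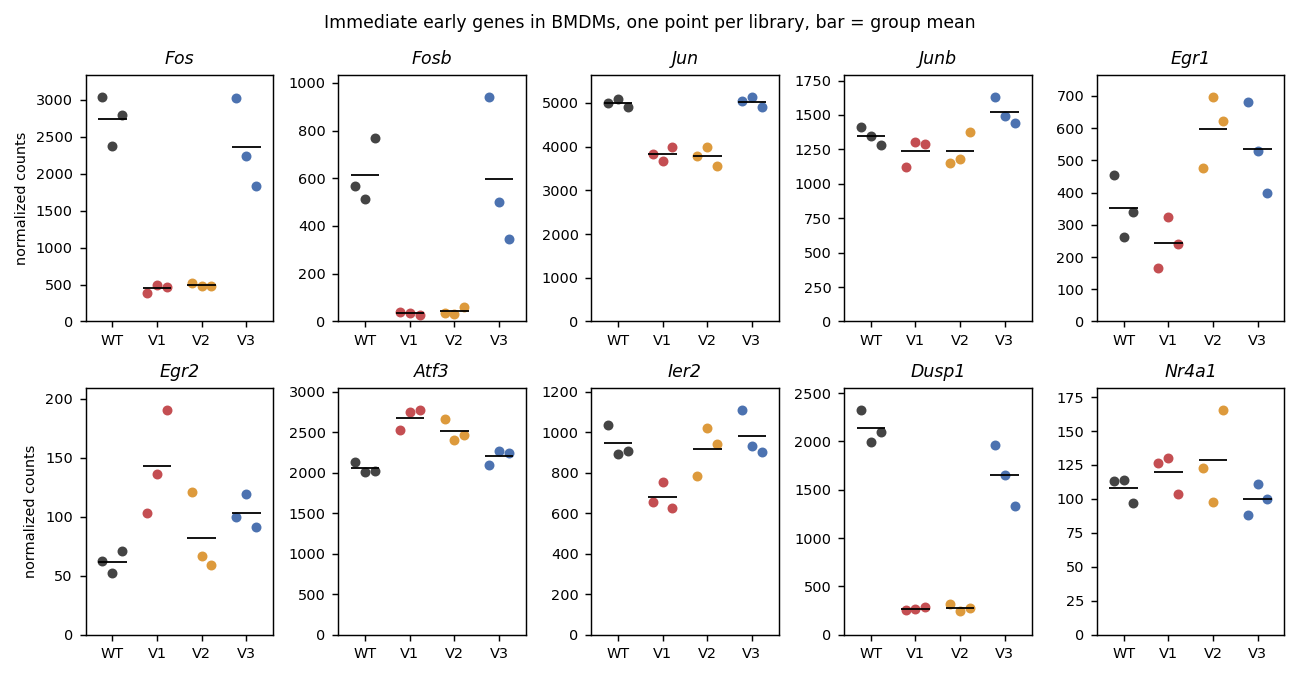
Normalized counts of the 10 immediate early genes in BMDMs, with 1 point per library in replicate order, the bar at the group mean and genotype on the horizontal axis. Fos, Fosb and Dusp1 are low in all V1 and V2 libraries, with Fosb at 25.9 to 59.8 against 345 to 940.5 in B6 WT and V3, whereas the other 7 genes differ less.

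The remaining AP-1 and ATF genes moved little in BMDMs. Jun, the main partner of Fos proteins, had 4904 to 5097 normalized counts in B6 WT, 3669 to 3994 in V1, 3555 to 3995 in V2 and 4903 to 5135 in V3. V1 and V2 were thus below B6 WT without overlap, but by only -0.39 (SE 0.05) and -0.41 (SE 0.05) on the log2 scale, and V3 was at 0.01 (SE 0.05). Junb ran from 1122 to 1301 in V1 and from 1150 to 1378 in V2 against 1279 to 1410 in B6 WT, and from 1441 to 1631 in V3. Atf3, a stress-induced member of the family, was on the other side of B6 WT: 2008 to 2135 in B6 WT, 2528 to 2773 in V1, 2406 to 2664 in V2 and 2098 to 2272 in V3. Its log2 differences were 0.38 (SE 0.05), 0.29 (SE 0.05) and 0.10 (SE 0.05).

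The zinc finger genes followed neither pattern. Egr1 had 262 to 455 normalized counts in B6 WT, 166 to 324 in V1, 478 to 697 in V2 and 400.1 to 683 in V3. V1 lay on the low side by -0.55 (SE 0.25), and V2 and V3 lay on the high side by 0.78 (SE 0.25) and 0.61 (SE 0.25), so the 2 macrophage groups with low Fos had Egr1 on opposite sides of B6 WT. Egr2 had 52.2 to 71.3 in B6 WT, 103 to 190.1 in V1, 58.9 to 121 in V2 and 91.6 to 119 in V3, with log2 differences of 1.16, 0.34 and 0.73 (SE 0.26 each). V1 and V3 were above B6 WT without overlap, and V2 replicate 1 was the only V2 library above all of B6 WT. Ier2 had 894 to 1038 in B6 WT, 627 to 757 in V1, 786 to 1023 in V2 and 903 to 1109 in V3. Its V1 difference was -0.48 (SE 0.11), while V2 and V3 were within 0.05 of B6 WT. Nr4a1 had 96.7 to 114 in B6 WT, 103 to 129.97 in V1, 97.8 to 165 in V2 and 88.5 to 111 in V3, with every knockout overlapping B6 WT.

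Counted over the group, 5 members lay below B6 WT without overlap in V1 (Fos, Fosb, Jun, Ier2 and Dusp1) and 2 above (Egr2 and Atf3), where 15.4% of all genes tested lay below and 15.4% above. In V2, 4 were below (Fos, Fosb, Jun and Dusp1) and 2 above (Egr1 and Atf3), against 12.7% and 10.1% of all genes. In V3, 1 was below (Dusp1) and 2 above (Junb and Egr2), against 13.2% and 12.2%. The contrasts chose the group, so nothing is read from these counts. The median log2 difference of the members was -0.43 in V1, -0.09 in V2 and 0.03 in V3, beside 0.00 for all genes in each. The knockout groups share the same B6 WT libraries.

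**Figure D2:**
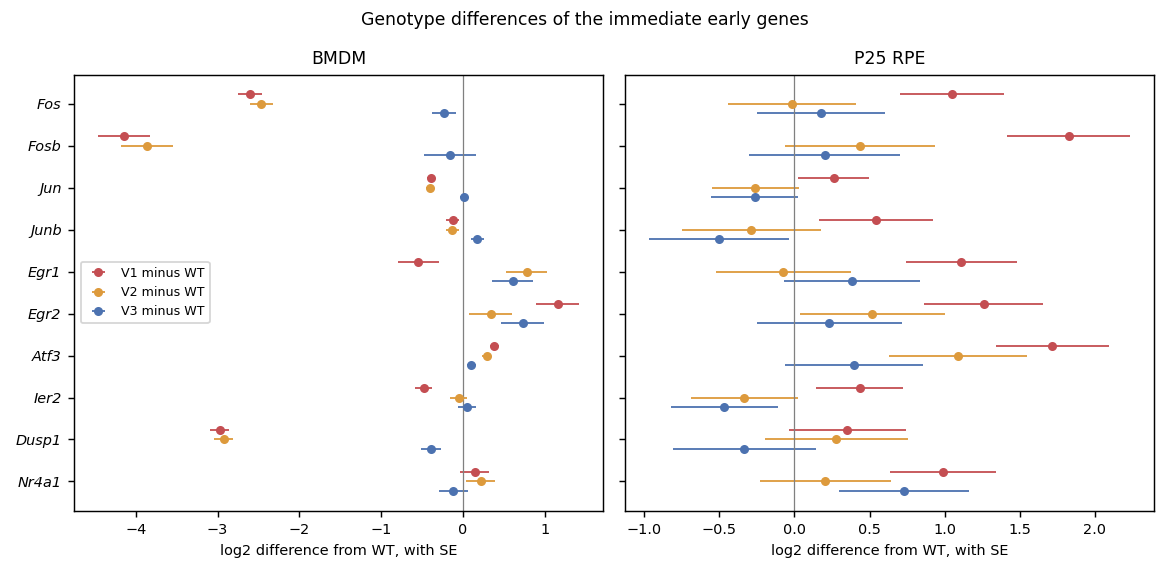
Log2 difference of each knockout from B6 WT for the 10 genes in BMDMs (left) and P25 RPE (right), from the fit across all genes. Points are estimates and bars are SE. In BMDMs Fos, Fosb and Dusp1 lie between -4.14 and -2.46 in V1 and V2, and in RPE the V1 points lie between 0.26 and 1.83.

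Other immediate early genes were measured from a list of 38, of which 31 passed the filter on low values in BMDMs. In V1, 4 were higher and 6 lower with an adjusted p under 0.05 (limma, Benjamini-Hochberg over all genes tested), where 3.92% and 3.15% of all genes were called. Klf2, which encodes a Krüppel-like factor, fell by 1.11 on the log2 scale (SE 0.09, adjusted p = 1.01e-05), and Zfp36, which encodes an mRNA-destabilizing protein, fell by 0.74 (SE 0.09, adjusted p = 0.00023). Egr3 rose by 1.07 (SE 0.20, adjusted p = 0.00815) and Plk2, a polo-like kinase gene, by 0.77 (SE 0.15, adjusted p = 0.00877). In V2, 2 were higher and 5 lower, where 2.24% and 2.36% of all genes were called, and Btg2, an antiproliferative gene, fell by 0.81 (SE 0.11, adjusted p = 0.0011). Arc (adjusted p = 0.0413), Zfp36 (adjusted p = 0.00179) and Klf2 (adjusted p = 0.00769) also fell in V2, by 0.81, 0.60 and 0.52. In V3, limma called 0 of the 31, where 1.17% of all genes were called. At an unadjusted p under 0.05 there were 12. No share of all genes at that level is given for BMDMs, so nothing is read from such counts here or in the BMDM lists below.

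Few genes for the regulators upstream passed the test in BMDMs. Of 11 genes for serum response factor, its partners and CREB, 0 were called in V1 or V2 by limma, with 4 and 1 at an unadjusted p under 0.05, and Elk3 fell by 0.20 in V3 (SE 0.04, adjusted p = 0.0373). Of 18 MAP kinase pathway kinases, 0 were called in V1 and V3, with 5 and 2 at an unadjusted p under 0.05, and Mapk3, which encodes ERK1, fell by 0.17 in V2 (SE 0.04, adjusted p = 0.0377). Without overlap with B6 WT, 3 of the 11 lay above and 3 below in V1, and 4 of the 18 kinases lay above and 5 below in V2, to be read beside the shares of all genes given above. Among 10 feedback genes of the ERK pathway, Dusp4, another MAP kinase phosphatase, rose by 0.64 in V1 (SE 0.05, adjusted p = 1.08e-05) and by 0.48 in V2 (SE 0.05, adjusted p = 0.000277). Dusp6, an ERK phosphatase, fell by 0.29 in V1 (SE 0.08, adjusted p = 0.0445), and Spred2 rose by 0.21 in V2 (SE 0.05, adjusted p = 0.0257). Mafk was the only one of 10 AP-1 partner genes called, at 0.24 in V2 (SE 0.06, adjusted p = 0.0401).

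Lists of stress and clock genes and of other cell types moved beside these values. Of 9 heat shock genes tested, 4 were lower in V1 and the same number in V2, among them Hsph1 by -0.38 (SE 0.08, adjusted p = 0.0160) and -0.42 (SE 0.08, adjusted p = 0.0145), and 2 were lower in V3. Of 11 clock genes, 4 were higher in V1, with Per1 at 0.41 (SE 0.06, adjusted p = 0.00137), 2 in V2 and 0 in V3, where 3 had an unadjusted p under 0.05. Of 5 cycling markers, 3 were lower in V1 and 1 in each of V2 and V3, and their sum was 1762 to 1901 CPM in B6 WT, 1456 to 1663 in V1, 1550 to 1815 in V2 and 1540 to 1582 in V3. The sum of 8 macrophage markers was 15387 to 16288 in B6 WT, 14619 to 15497 in V1, 14859 to 16067 in V2 and 14773 to 15173 in V3, with C1qa lower by -0.39 in V1 (SE 0.06, adjusted p = 0.00115) and -0.31 in V3 (SE 0.06, adjusted p = 0.0194). Neutrophil markers summed to 17.9 to 26.8 in all groups with Ly6g at 0, lymphocyte markers had none of 6 above the filter, and the sum of 5 dendritic cell markers was 2.27 to 3.02 in B6 WT, 4.16 to 7.35 in V1, 2.84 to 4.81 in V2 and 3.63 to 4.03 in V3, with Itgax higher in V1 by 1.43 (SE 0.23, adjusted p = 0.00336). The part of these markers in the Fos, Fosb and Dusp1 values was not tested.

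In RPE, all 10 members had positive V1 differences from B6 WT, with a median of 1.02 on the log2 scale beside 0.02 for all genes, but none passed the adjusted threshold in limma, where 0.388% of the 18832 genes tested were called. At an unadjusted p under 0.05, 6 of 10 were higher (Fos, Fosb, Egr1, Egr2, Atf3 and Nr4a1), where 3.31% of all genes were. These genes were measured in the same libraries, so they are not 10 independent observations. DESeq2 on recovered reads called 2 of them, where 1.07% of all genes were called, and edgeR called 0. With the replicate number as a block, limma called 0 of the 10, where 0.696% of all genes were called. In that fit 8 had an unadjusted p under 0.05, with no share of all genes at that level to set beside them, so nothing is read from this count. No member lay above B6 WT without overlap, where 0.568% of all genes did.

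Fosb and Atf3 differed most. Fosb had 29.8 to 91.4 normalized counts in B6 WT (median 38.2), 66.4 to 271 in V1 (median 167), and 92.7, 41.6 and 49.0 in V2 and 120.5, 43.6 and 21.6 in V3. All 6 V1 libraries lay above 5 of the 6 B6 WT libraries, and the difference was 1.83 (SE 0.41, adjusted p = 0.0729), or 3.55-fold. That B6 WT library was replicate 2. Atf3 had 24.3 to 66.8 in B6 WT (median 38.7) and 61.6 to 202 in V1 (median 146), with 129, 63.6 and 74.8 in V2 and 115, 36.2 and 33.9 in V3. It was higher in V1 by 1.72 (SE 0.38, adjusted p = 0.0611), with V1 replicate 4 inside the B6 WT range. With the set of replicates (1 to 3 or 4 to 6, below) as a term, both passed, at an adjusted p of 0.0424 for Fosb and 0.0437 for Atf3, where 0.738% of all genes were called.

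The other AP-1 genes differed less in V1. Fos had 144 to 441 normalized counts in B6 WT (median 217) and 229 to 691 in V1 (median 558), and 251, 182 and 237 in V2 and 554, 152 and 191 in V3. Its V1 difference was 1.05 (SE 0.35, adjusted p = 0.406). V1 replicates 4 and 5 lay within the B6 WT range. Junb had 438 to 1619 in B6 WT and 601 to 2469 in V1, a difference of 0.54 (SE 0.38, adjusted p = 0.836). Jun had 1027 to 2065 in B6 WT and 1106 to 2796 in V1, a difference of 0.26 (SE 0.24, adjusted p = 0.876).

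Among the zinc finger and receptor genes, Egr1 had 384 to 1664 normalized counts in B6 WT and 664 to 2309 in V1, a difference of 1.11 (SE 0.37, adjusted p = 0.406). B6 WT replicate 2, at 1664, was far above the other B6 WT libraries, which did not pass 576. Egr2 was near the filter, at 1 to 10 reads per library in B6 WT and 9 to 31 in V1, with a difference of 1.26 (SE 0.39, adjusted p = 0.341). Nr4a1 had 86.7 to 232 in B6 WT and 196 to 679 in V1, a difference of 0.99 (SE 0.35, adjusted p = 0.519). Ier2 had 248 to 683 in B6 WT and 315 to 959 in V1, and Dusp1 had 309 to 778 and 266 to 1626, with differences of 0.44 (SE 0.29, adjusted p = 0.829) and 0.35 (SE 0.39, adjusted p = 0.891). The genes with the largest V1 differences in BMDMs were therefore spread from the top of the RPE order, Fosb, to near its foot, Dusp1.

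**Figure D3:**
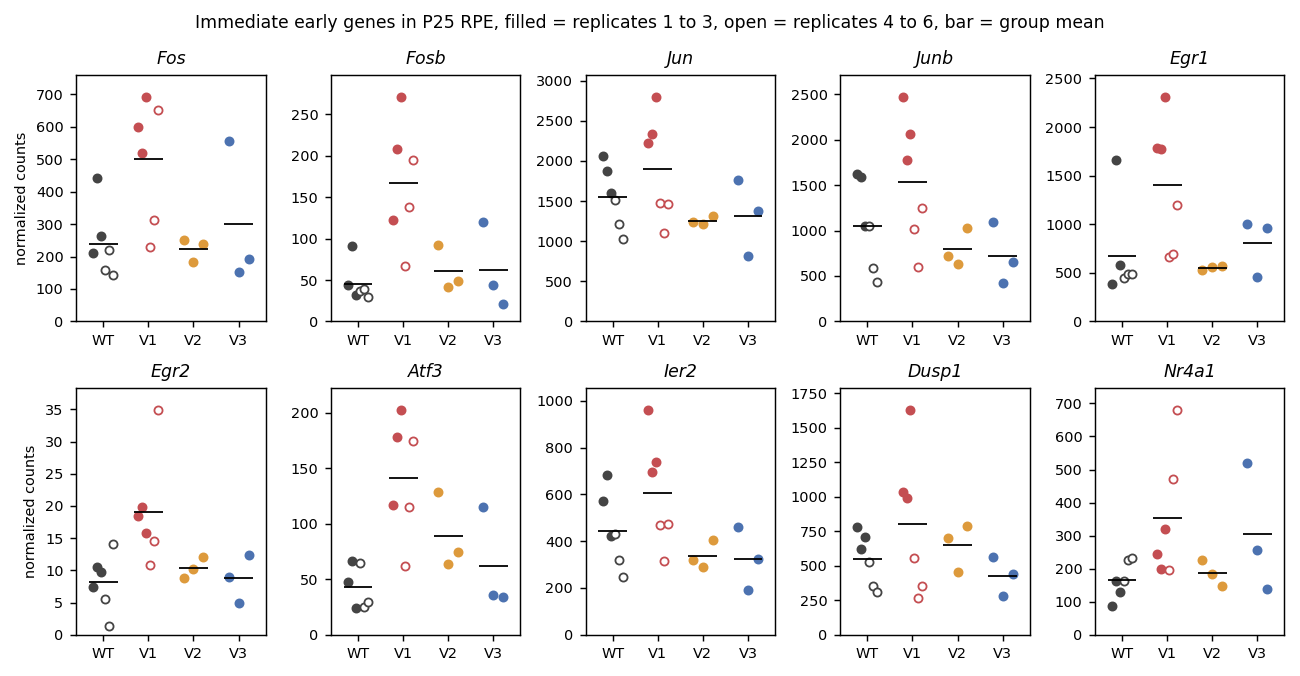
Normalized counts of the 10 genes in P25 RPE, with 1 point per library and the bar at the group mean. Filled points are replicates 1 to 3 and open points replicates 4 to 6, which exist for B6 WT and V1 only. V1 replicates 1 to 3 are above B6 WT replicates 1 to 3 for every gene.

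Lists of cell type markers were also compared between V1 and B6 WT in RPE. Of 8 macrophage markers, limma called 2 higher, C1qa by 1.04 (SE 0.21, adjusted p = 0.0346) and C1qb by 1.02 (SE 0.17, adjusted p = 0.00977). Of the 8, 7 had positive differences and 6 were higher at an unadjusted p under 0.05, where 3.31% of all genes were. Without overlap, 4 lay above B6 WT, where 0.568% of all genes did. The summed list, in which abundant markers weigh most, was 325 to 474 CPM in B6 WT and 265 to 443 in V1. The RPE marker sum was 20404 to 32025 in B6 WT and 8322 to 23454 in V1, with 0 of 8 called by limma and 5 lower at an unadjusted p under 0.05. The rod marker sum was 1050 to 13055 in B6 WT and 2111 to 31427 in V1, with 0 of 8 called by limma and 0 at an unadjusted p under 0.05. The part of these cell types in the V1 values of the members was not tested. Of 35 other immediate early genes tested, 0 were called, 31 had positive differences and 8 were higher at an unadjusted p under 0.05, with a median of 0.28. None of 11 feedback genes of the ERK pathway was called, and 2 were lower at an unadjusted p under 0.05. None of 10 heat shock genes was called, with 1 lower at that level.

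V2 and V3 RPE lay near B6 WT. In limma 0 of 10 members were called in either, with 1 (Atf3 in V2, 1.09, SE 0.46, adjusted p = 0.883) and 0 at an unadjusted p under 0.05, where 5.47% and 11.1% of all genes were at that level and 0.069% of all genes were called in each. DESeq2 and edgeR on recovered reads also called 0 in each. The medians of the members were 0.10 in V2 and 0.19 in V3. The 95% intervals were wide, for example -0.92 to 0.89 for Fos in V2 and -0.86 to 1.26 for Fosb in V3, so a p above the threshold does not show that the groups were alike. V3 replicate 1 held the highest V3 value for 9 of 10 members, such as 554 normalized counts of Fos beside 152 and 191. With the set of replicates as a term, 4 members were lower in V3, where 25.2% of all genes were called: Jun by -0.62 (adjusted p = 0.0409), Junb by -1.08 (adjusted p = 0.0314), Ier2 by -0.89 (adjusted p = 0.0279) and Dusp1 by -0.96 (adjusted p = 0.0373), all in limma. Between V2 and V3, 0 of 10 were called by limma, edgeR or DESeq2, and 0 had an unadjusted p under 0.05 in limma, where 0.0743% and 12.6% of all genes were.

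Against the mean of V2 and V3, V1 was higher for all 10 members, with a median of 0.91 beside 0.01 for all genes. No member passed the adjusted threshold, where 0.207% of all genes did, and 8 were higher at an unadjusted p under 0.05, where 5.76% of all genes were. With replicates 1 to 3 of each genotype alone, 7 members passed (Fos, Fosb, Jun, Junb, Egr1, Ier2 and Dusp1), where 11.5% of all genes were called. Junb had the smallest adjusted p there, 0.0137, at 1.53 (SE 0.28), and Fosb the largest of the 7, 0.0465, at 1.83 (SE 0.52). V2 and V3 exist as replicates 1 to 3 only, and the labels do not say that they were collected with replicates 1 to 3 of the other genotypes, so set and genotype cannot be told apart here.

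The RPE libraries of B6 WT and V1 fell into replicates 1 to 3 and 4 to 6, and the members differed between these sets. At an adjusted p under 0.05, 6 of 10 were higher in replicates 1 to 3 and 0 lower, where 40.8% of the 18795 genes tested were called in either direction and 21.8% higher. Dusp1 had 622 to 778 normalized counts in B6 WT replicates 1 to 3 against 309 to 527 in 4 to 6, and 987 to 1626 against 266 to 553 in V1. Its difference was 1.26 (SE 0.23, adjusted p = 0.00725), without overlap. Jun had 1599.7 to 2065 against 1027 to 1510 in B6 WT and 2218 to 2796 against 1106 to 1473 in V1, a difference of 0.72 (SE 0.12, adjusted p = 0.00724), also without overlap, where 6.15% of all genes were higher without overlap.

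Junb and Ier2 were higher by 1.15 (SE 0.23, adjusted p = 0.00733) and 0.85 (SE 0.17, adjusted p = 0.00735), and Fos and Egr1 by 0.74 (SE 0.25, adjusted p = 0.0332) and 0.92 (SE 0.31, adjusted p = 0.0321). The calls for Fos and Egr1 were each lost when B6 WT replicate 2 or V1 replicate 1, 3, 4 or 5 was left out, with adjusted p-values of 0.0530 to 0.0715; Fos also lost its call without B6 WT replicate 6 and Egr1 without V1 replicate 2. Fosb at 0.58 (SE 0.31, adjusted p = 0.155), Atf3 at 0.40 (SE 0.33, adjusted p = 0.348) and Egr2 at 0.37 (SE 0.43, adjusted p = 0.504) did not pass. Nr4a1 stood on the other side at -0.70 (SE 0.27, adjusted p = 0.0590), and edgeR and DESeq2 called it lower in replicates 1 to 3.

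Other lists moved with the sets too. Of 35 other immediate early genes, 16 were higher in replicates 1 to 3 and 1 was lower. Zfp36 rose by 1.06 (SE 0.21, adjusted p = 0.00733), Klf4 by 1.00 (SE 0.27, adjusted p = 0.0146) and Myc by 0.97 (SE 0.25, adjusted p = 0.0124), whereas Npas4, an immediate early gene of neurons, fell by 2.20 (SE 0.43, adjusted p = 0.00733). Of 11 ERK feedback genes 8 were higher, led by Phlda1 at 0.99 (SE 0.17, adjusted p = 0.00724), and 5 of 10 heat shock genes were higher, with Hspa1b at 0.95 (SE 0.20, adjusted p = 0.00745). All 8 rod markers were lower, and their sum was 1050 to 3966 CPM in B6 WT replicates 1 to 3 and 4561 to 13055 in 4 to 6, and 2111 to 3115 and 5183 to 31427 in V1. Of 8 RPE markers 7 were higher, as were all 5 erythroid and all 5 cycling markers. The part of these cells in the set difference of the members was not tested.

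The V1 difference was also read within each set. In replicates 1 to 3 all 10 members lay above B6 WT without overlap, where 6.47% of all genes did, and 7 had an unadjusted p under 0.05, where 3.01% of all genes were higher at that level. In replicates 4 to 6, 3 members (Fos, Fosb and Egr1) lay above without overlap, where 5.87% of all genes did, and 4 had an unadjusted p under 0.05 (the same 3 and Atf3), where 3.43% of all genes were higher. No member passed the adjusted threshold within a set, where 0.0698% and 0.00524% of all genes did. Fosb differed by 1.89 (SE 0.60) and 1.76 (SE 0.42) in the sets, Atf3 by 1.90 (SE 0.51) and 1.53 (SE 0.51), and Fos by 1.04 (SE 0.42) and 1.06 (SE 0.40). Dusp1 was the member that changed side, at 0.76 (SE 0.28) and -0.06 (SE 0.32). The test of the difference between sets called 0 members and 0 genes in limma, with 0 members and 6.65% of all genes at an unadjusted p under 0.05, and the interval for Dusp1 was -0.08 to 1.71.

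**Figure D4:**
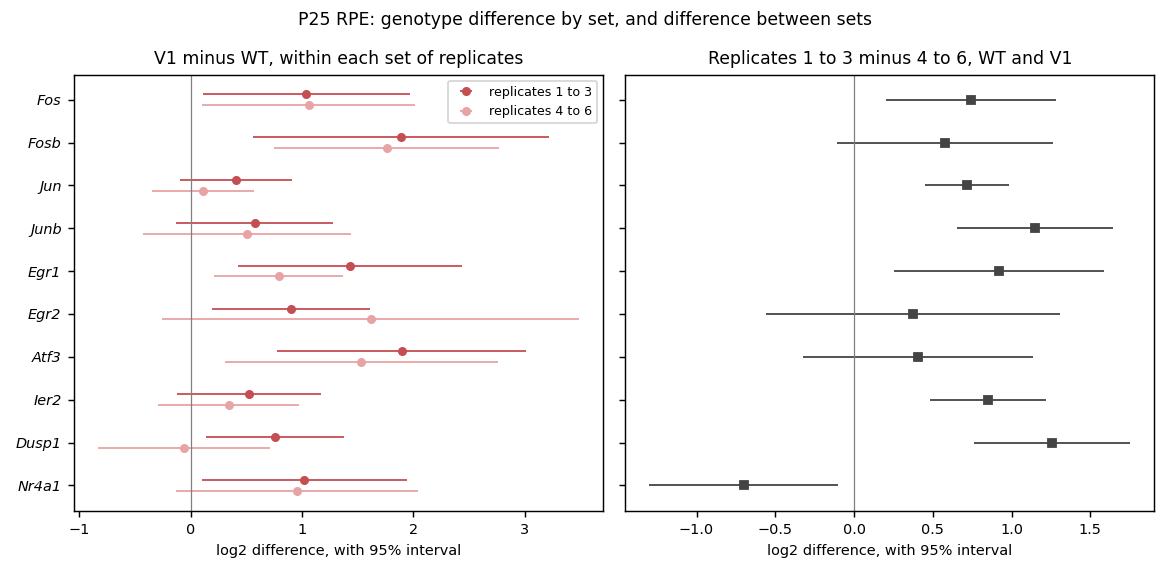
Log2 differences in P25 RPE with 95% intervals: V1 minus B6 WT within replicates 1 to 3 and within 4 to 6 (left), and replicates 1 to 3 minus 4 to 6 over B6 WT and V1 with genotype as a term (right). Fosb is at 1.89 and 1.76 on the left, and Dusp1 at 1.26 has the largest set difference on the right.

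V1 replicate 3 held the highest V1 value of 6 members. Over all 18 RPE libraries, V1 replicates 1, 2 and 3 were among the top 3 libraries for 7, 8 and 8 members. V3 replicate 1, V1 replicate 5 and V1 replicate 6 were among them for 1, 1 and 5 members, and the remaining libraries for none. The median coefficient of variation of the members within a group was 45.1% in B6 WT, 43.6% in V1, 19.4% in V2 and 44.8% in V3 RPE, and 8.78%, 11.0%, 12.2% and 12.6% in the same order in BMDMs, with no test. Egr1 in V2 stood the other way, at 3.83% in RPE and 18.6% in BMDMs. So did Jun (4.26% and 5.83%), Egr2 (15.4% and 41.4%) and Nr4a1 (21.2% and 26.6%) in V2. B6 WT and V1 RPE hold both sets of replicates. The genes most like the mean standardized profile of the members over the 18 RPE libraries were Dusp5 (r = 0.89), Zfp954 (r = 0.88), Adnp2 (r = 0.86), Ier3 (r = 0.86) and Mitd1 (r = 0.83). Over the 12 BMDM libraries they were Wipf2 (r = 0.925), Dhrs4 (r = 0.9245), Mpnd (r = 0.91), Ninl (r = 0.89) and Zfp36 (r = 0.89). These libraries share genotype and, in RPE, set, and the values are a description.

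Levels between genes were compared as RPKM (reads scaled to exon length and library size) in B6 WT, with no test between tissues because the tables were normalized separately. In RPE the order was Jun at 18.4 RPKM (SD 3.56, n = 6), Junb at 17.2 (SD 7.16), Ier2 at 11.0 (SD 3.42), Dusp1 at 6.26 (SD 1.82), Egr1 at 5.69 (SD 3.88), Fos at 3.87 (SD 1.60), Nr4a1 at 1.86 (SD 0.730), Atf3 at 0.756 (SD 0.322), Fosb at 0.277 (SD 0.129) and Egr2 at 0.0912 (SD 0.0523). Neighbours overlapped at every step of this order but the last, between Fosb and Egr2. In BMDMs Jun was highest at 76.8 RPKM (SD 2.68, n = 3), followed by Fos at 56.97 (SD 6.43) and Atf3 at 46.7 (SD 1.60), which did not overlap. Dusp1 at 31.6 (SD 2.31), Ier2 at 30.5 (SD 2.52) and Junb at 28.7 (SD 1.62) followed, with each neighbouring pair overlapping. Fosb at 4.82 (SD 0.985) and Egr1 at 3.85 (SD 1.04) overlapped, and Nr4a1 at 1.51 (SD 0.157) and Egr2 at 0.893 (SD 0.125) were lowest. Atf3 thus stood at the third place in BMDMs and near the foot of the RPE order.

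**Figure D5:**
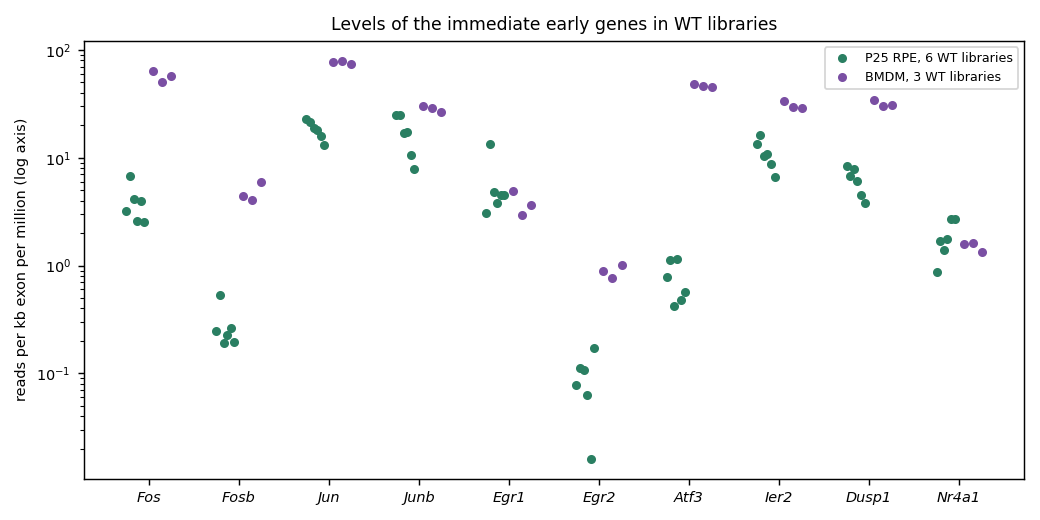
Levels of the 10 genes in B6 WT libraries as RPKM, on a log axis, with 1 point per library. Jun has the highest mean in both tissues, and Atf3 is at 45.3 to 48.5 in BMDMs and at 0.421 to 1.15 in RPE.

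By the GENCODE M21 annotation on GRCm38, the genes lie on several chromosomes and all are protein coding: Fos (ENSMUSG00000021250) at chr12:85473890-85477273, Fosb (ENSMUSG00000003545) at chr7:19302696-19310051, Jun (ENSMUSG00000052684) at chr4:95049034-95052222, Junb (ENSMUSG00000052837) at chr8:84974484-84978718 and Ier2 (ENSMUSG00000053560) at chr8:84661331-84662852. Egr2 (ENSMUSG00000037868) is at chr10:67535475-67542188, Atf3 (ENSMUSG00000026628) at chr1:191170296-191218039, Dusp1 (ENSMUSG00000024190) at chr17:26505590-26562128 and Nr4a1 (ENSMUSG00000023034) at chr15:101254269-101274795. Egr1 has the identifier ENSMUSG00000038418.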

How the data were processed

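RNA was sequenced as paired-end Illumina libraries. The authors trimmed reads, aligned them with STAR to GRCm38 (mm10) and normalized gene counts with DESeq2; the counter, annotation and versions are not given in the sources used here. The deposited values are counts divided by a size factor per library, a signal on the scale of reads (normalized counts). They were whole multiples of the value of 1 read (tolerance 0.01), so reads were recovered, for 100% of values. Of 55573 genes, 240 rows without a name included, 18832 (RPE) and 13420 (BMDM) had a mean of at least 10 and were tested.

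Groups came from the labels. Same-numbered B6 WT and V1 RPE libraries deviated together (6 of 6 correlations of deviations over 0.1, from 0.12 to 0.72). Libraries of the same set with other numbers could do so as much. B6 WT replicate 1 correlated at 0.61, 0.62 and 0.67 with V1 replicates 1, 2 and 3. B6 WT replicate 4 correlated at 0.12, -0.18 and -0.07 with V1 replicates 4, 5 and 6. The fit with a replicate block used the numbers as blocks over all genotypes, V2 and V3 included. The labels give no pairing, and 1 of 6 B6 WT libraries correlated best with its own number. The test was limma 3.58.1 with trend (R 4.3.3) on log2(value + 1), with all genotypes of a tissue in one fit, two-sided, with Benjamini-Hochberg adjustment over all genes tested. A call is an adjusted p under 0.05. Fold changes are on the log2(value + 1) scale and understate low genes. edgeR 4.0.16 (quasi-likelihood, TMM) and DESeq2 1.42.0 on recovered reads were alternatives, with a pseudocount of 5, no filter, each library left out, a replicate block, the set of replicates as a term, and the study's log2 threshold. Scripts were tested on simulated data.

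The members and lists were chosen with earlier results of these data known. All members are named; of each other list up to 4 called genes with the largest difference per comparison, and the 5 genes most correlated with the members' mean profile. Exon lengths for RPKM came from GENCODE M21, and promoter windows from RefSeq (GRCm38.p6). 95% intervals are from the fits. Depth is given with the results, and p-values cover the spread between these libraries only.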

Additional observations from a re-analysis of the deposited data

Results flagged for a closer look

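Fosb and Egr1 in RPE each had 1 library far from its group. B6 WT replicate 2 held 91.4 normalized counts of Fosb and 1664 of Egr1, and its gap to the next library passed Dixon's 95% critical value of 0.625 for 6 samples. With 20 groups of 6 looked at, chance alone flags about 1 in 20, and both values are of the same library. Without it, the V1 difference of Fosb in RPE passed the threshold (limma, adjusted p = 0.0458).

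Fosb stood on opposite sides of B6 WT in the tissues of V1 mice. Every V1 RPE library was above the B6 WT mean, with a log2 difference of 1.83, and every V1 BMDM library was below it, with a log2 difference of -4.14. The difference between tissues was not tested, since the tables were normalized separately. The BMDM side is the one that chose the gene.

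Egr1 did the same in V2, with every RPE library below the B6 WT mean, at a log2 difference of -0.0734, and every BMDM library above it, at 0.781. This difference was not tested either. The RPE value is small, and its side rests on 1 library: without B6 WT replicate 2 the log2 difference in RPE was 0.23 (SE 0.37), on the same side as in BMDMs.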

How the results depend on the processing

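For V1 against B6 WT in RPE, limma called 0 members, where 0.388% of all genes were called. DESeq2 on recovered reads called 2, where 1.07% of all genes were called. The set of replicates as a term gave 2, where 0.738% were called. With that term edgeR called 2 and DESeq2 called 5, with no share of all genes given for these fits, so nothing is read from these counts. All these members were higher. Leaving out 1 library gave 0 to 2, with calls without B6 WT replicate 2, V1 replicate 4 and V3 replicates 1 and 3. For V3 against B6 WT the set term gave 4 calls, replicates 1 to 3 alone gave 1, and edgeR and DESeq2 with the set term gave 5 each (Jun, Junb, Ier2 and Dusp1 lower, Nr4a1 higher), where 21.9% to 36.5% of all genes were called; leaving out 1 library gave 0. For V1 against the mean of V2 and V3, the set term, replicates 1 to 3 alone, edgeR and DESeq2 with the set term gave 7 each. Replicates 1 to 3 alone called 11.5% of all genes, and no share is given for the others. The 7 are therefore not read as particular to the members. Leaving out 1 library gave 0 to 1, the 1 without V3 replicate 1. V2 against B6 WT and V2 against V3 stayed at 0 under all alternatives run. For replicates 1 to 3 against 4 to 6, 1 of the 6 calls (Dusp1) also passed the study's threshold on the size of the log2 difference, and leaving out 1 library gave 4 to 6. The causes were not tested.

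The labels give no pairing by replicate number for V2 and V3 RPE or for BMDMs, although the block fits used the numbers. Over all 21 same-numbered RPE pairs the correlation of deviations from the group means exceeded 0.1 in 13, with a lowest value of -0.46. These pairs include the 6 of B6 WT and V1. Among RPE pairs with other numbers it exceeded 0.1 in 36 of 96. In BMDMs it did so in 4 of 18 same-numbered pairs and in 14 of 36 others. Such correlations cannot settle whether samples were paired. With the replicate number as a block, V3 against B6 WT gave 5 calls, V1 against the mean of V2 and V3 gave 7, V1 against B6 WT 0 as without it, and the BMDM medians were -0.43, -0.09 and 0.03. No share of all genes is given for the block fits with 5 and 7 calls, so nothing is read from those counts. edgeR and DESeq2 with the set term were chosen after seeing the data.

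In BMDMs the members' median ranged from -0.46 to -0.34 in V1, from -0.14 to -0.03 in V2 and from -0.01 to 0.10 in V3 when 1 library was left out. The V3 median was negative without V3 replicate 1. The log2 threshold with an adjusted p was not run for the members there, since no test was made of them. No called value changed sign. Of the other members' differences, 22 in RPE and 4 in BMDMs changed sign under at least 1 alternative, among them Egr1 in V2 RPE, which went from -0.07 to 0.23 without B6 WT replicate 2. Egr2 in RPE rests on 1 to 31 reads per library, which limits its precision.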
